A study of Mus musculus with 3 samples.

Results

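The 8 S100 genes described here, S100a8, S100a9, S100a7a, S100a4, S100a6, S100a10, S100a11 and S100b, were followed through 3 libraries of corneal nuclei. They were chosen by name as the S100 genes best known as alarmins or as partners of annexins, matched by Ensembl ID, and are 8 of the 30406 genes that every gene list of the series holds. RNA of nuclei from snap-frozen whole mouse corneas was counted by droplet sequencing, with 1 library per group and 5 mice pooled in each, at 7 weeks of age per the labels. The WT library came from untreated wild-type mice, the KO library from untreated mice of genotype KO, which the series text gives as Aire KO, and the KO_PBS library from KO mice that received PBS for 14 days. Aire lets the thymus present proteins of other organs to developing T cells, and its loss leads to autoimmunity that reaches the lacrimal gland. The comparisons thus set the cornea of a dry eye model against the wild-type one, and the saline-treated cornea against both. The design text gives 6 weeks and treatment day 7 instead, and its lacripep arm was not analysed here.

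S100 proteins are small calcium-binding proteins that pair with each other inside the cell. S100A8 and S100A9 form calprotectin, an abundant protein of the neutrophil cytosol that is also made by stressed squamous epithelium. Once outside the cell it binds zinc and manganese, which microbes need, and signals through Tlr4 and through Ager, the receptor known as RAGE. S100A7A belongs to the psoriasin group of antimicrobial epithelial proteins, S100A4 is known from fibroblasts and macrophages, S100A10 and S100A11 bind annexins at membranes, S100A6 is a general epithelial member, and S100B is a marker of glia and pigment cells.

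In mm10, the build named in the submitters' processing notes, 7 of the 8 genes lie on chromosome 3. S100a4 (ENSMUSG00000001020, chr3:90603771-90606045), S100a6 (ENSMUSG00000001025, chr3:90612882-90624181), S100a7a (ENSMUSG00000063767, chr3:90654017-90658669) and S100a8 (ENSMUSG00000056054, chr3:90668978-90670035) follow each other on the plus strand. S100a9 (ENSMUSG00000056071, chr3:90692632-90695721) is on the minus strand, and its span begins 23.7 kb beyond the start of S100a8. S100a11 (ENSMUSG00000027907, chr3:93520488-93526287) and S100a10 (ENSMUSG00000041959, chr3:93555080-93564643) lie 2852 and 2886 kb beyond it, and the genes of the cornified envelope stand between both groups. S100b (ENSMUSG00000033208, chr10:76253853-76261159) is on chromosome 10. These are gene spans of GENCODE M21.

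The promoters of S100a8 and S100a9 are shown because these neighbours had the largest folds among the 8 genes between KO and WT, and that of S100a7a because it lies beside them and differed the other way. Each sequence runs from 250 bases before the RefSeq start to 30 bases after it in GRCm38.p6, chr3:90668821-90669100 (plus) for S100a8, chr3:90695692-90695971 (minus) for S100a9 and chr3:90654052-90654331 (plus) for S100a7a. RefSeq and GENCODE starts differ for S100a7a, whose whole window lies inside its GENCODE span, and for S100a8, whose window lies partly inside. The S100a7a letters thus do not cover the bases before its GENCODE start. Capitals mark TATAAA, the TATA box, and TTNNGNAA, the pattern bound by C/EBP factors of myeloid and epithelial cells, searched on both strands; the marked motifs do not overlap.
S100a8: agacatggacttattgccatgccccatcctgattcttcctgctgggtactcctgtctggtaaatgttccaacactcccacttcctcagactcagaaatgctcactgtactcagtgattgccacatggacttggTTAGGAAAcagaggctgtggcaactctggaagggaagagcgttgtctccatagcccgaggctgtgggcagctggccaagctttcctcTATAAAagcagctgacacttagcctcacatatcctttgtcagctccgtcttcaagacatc
S100a9: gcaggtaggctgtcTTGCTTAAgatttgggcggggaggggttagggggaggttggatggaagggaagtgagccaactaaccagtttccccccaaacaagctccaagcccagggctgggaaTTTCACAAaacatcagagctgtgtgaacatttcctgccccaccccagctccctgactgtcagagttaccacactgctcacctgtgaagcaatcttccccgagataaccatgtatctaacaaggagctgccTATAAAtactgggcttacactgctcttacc
S100a7a: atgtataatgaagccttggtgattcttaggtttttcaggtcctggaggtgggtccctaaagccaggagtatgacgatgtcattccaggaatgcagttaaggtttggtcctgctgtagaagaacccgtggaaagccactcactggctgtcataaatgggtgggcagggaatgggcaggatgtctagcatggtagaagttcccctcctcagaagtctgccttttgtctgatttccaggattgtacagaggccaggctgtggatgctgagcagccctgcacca
S100a8 held TATAAA from base -30 and 1 C/EBP pattern from base -117. S100a9 held C/EBP patterns from bases -236 and -130, and its TATAAA began at base 1, the RefSeq start itself. The S100a7a window held neither, and a TTCNNNGAA match, the GAS pattern of STAT factors, from base -169. Of the 32851 promoter windows of the RefSeq table, which run from 250 bases before to 50 after a start and were searched in full, 13.6% held TATAAA, 40.7% held TTNNGNAA and 8.30% held TTCNNNGAA, so each is a description of these letters and no sign of binding. Windows were found for 7 of the 8 genes.

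The libraries held 256852883 UMIs in 96587 barcodes (WT), 352627863 in 107031 (KO) and 178988562 in 114357 (KO_PBS), with a median of 2261, 2980 and 1432 UMIs per barcode. Levels below are UMIs per 1000000 UMIs (CPM) of the shared genes, summed over all barcodes. The libraries shared barcode sequences, 2833 between WT and KO, 2998 between WT and KO_PBS and 3379 between KO and KO_PBS, of which 84 were in all 3. Without them, S100a8 was 6.63 on the log2 scale above WT in KO, as with them, and the number of S100 genes called in each comparison stayed the same. Corneal genes were present in every library, with Krt12, the keratin of corneal epithelium, at 26121, 13793 and 6205 CPM and Kera, a stromal proteoglycan, at 48.4, 156 and 32.9 CPM. Where 3 values stand together here and below, they are those of WT, KO and KO_PBS in turn. Genes of neighbouring eye tissue were present too, and the 9 lens markers found summed to 497, 191 and 8117 CPM, the 9 photoreceptor markers to 162, 66.9 and 2008 CPM. Aire itself had 15, 27 and 68 UMIs (0.0586, 0.0768 and 0.382 CPM), so it did not check the genotype, and libraries are named as labelled.

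Each group had 1 library, so nothing was replicated and no test was made. A gene is called higher or lower by a rule of size: at least 50 UMIs over both libraries, at least 2-fold apart, and exact 95% Poisson intervals that do not overlap. These intervals cover counting error only. A sum over a library cannot tell fewer cells of a type from less RNA per cell. All 8 genes passed the UMI minimum in each comparison. Of them, 3 were higher and 2 lower in KO than in WT, where 20.6% of the 20252 genes tested were higher and 8.63% lower. KO_PBS against KO gave 2 higher and 2 lower, beside 39.9% higher and 4.70% lower of 22416 genes. KO_PBS against WT gave 3 higher and 0 lower, beside 57.0% higher and 4.06% lower of 22138 genes, so a higher call there is common. With ratios centred on the median gene, KO against WT gave the same 3 and 2 beside 14.8% higher and 12.9% lower. KO_PBS against KO then gave 2 higher and 3 lower beside 29.8% and 12.9%, and KO_PBS against WT 1 higher and 3 lower beside 29.6% and 23.1%. The median log2 ratio of the 8 genes was -0.31, 0.12 and 0.60 in these comparisons, and that of all genes tested 0.24, 0.63 and 1.27. The comparisons share libraries and are not independent of each other.

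**Figure D1:**
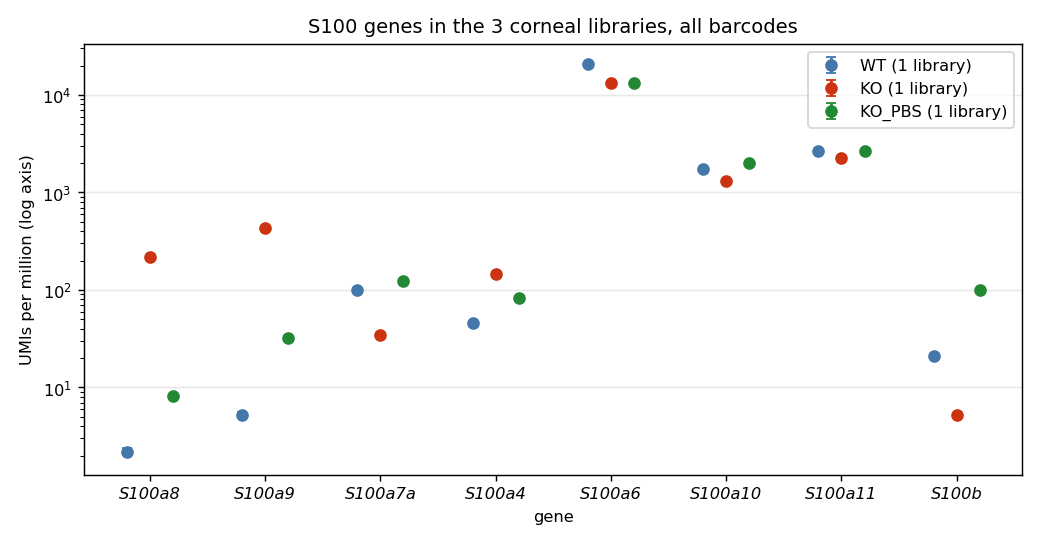
Level of each S100 gene in CPM on a log axis, 1 point per library, with exact 95% Poisson bars that are mostly smaller than the points. S100a8 and S100a9 stand highest in KO (218 and 430), while S100a7a (34.3) and S100b (5.26) stand lowest there.

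S100a8 and S100a9, the calprotectin genes, were the members furthest apart between libraries. S100a8 was counted with 563, 76467 and 1457 UMIs, which is 2.20 CPM (95% interval 2.02 to 2.39), 218 CPM (216 to 219) and 8.19 CPM (7.78 to 8.63). S100a9 had 1352, 150903 and 5780 UMIs, which is 5.28 CPM (5.00 to 5.57), 430 CPM (427 to 432) and 32.5 CPM (31.7 to 33.4). For both genes KO was highest, KO_PBS next and WT lowest, with no overlap of the intervals. S100a8 was 98.9-fold higher in KO than in WT (91.1 to 108; log2 ratio 6.63) and S100a9 81.3-fold higher (77.1 to 85.8; log2 ratio 6.35). Their ratios lay at the 99.2 and 99.1 percentiles of all genes tested. Between KO and KO_PBS, S100a8 was 26.6-fold lower in KO_PBS (25.2 to 28.0) and S100a9 13.2-fold lower (12.9 to 13.6), at the 0.669 and 0.990 percentiles. Centred on the median gene, the log2 ratios of KO_PBS to KO were -5.36 and -4.35, in place of -4.73 and -3.72.

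The saline-treated library did not reach the WT level of either gene on the CPM scale. S100a8 was 3.72-fold higher in KO_PBS than in WT (3.38 to 4.11) and S100a9 6.15-fold higher (5.80 to 6.53). Since the median gene was also higher in KO_PBS, by 1.27 on the log2 scale, these ratios were centred on it as well. The centred log2 ratio was 0.63 for S100a8, no longer called, and 1.35 for S100a9, still called higher. The percentiles, 63.0 and 76.6, show that many genes had ratios as large.

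**Figure D2:**
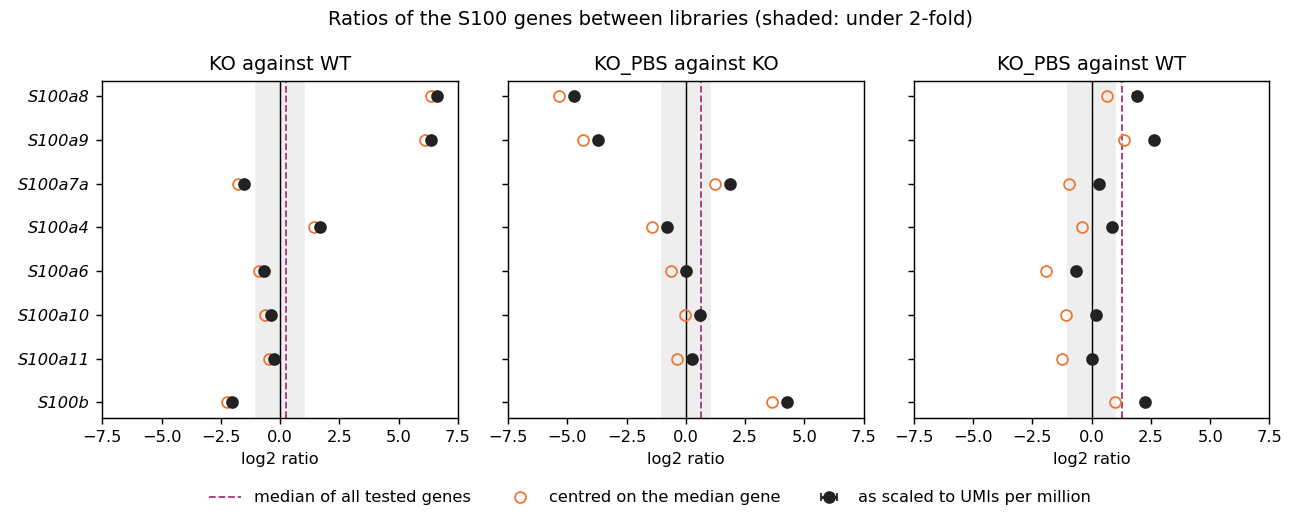
Log2 ratio of each S100 gene in the 3 comparisons, as scaled to CPM (filled, with exact 95% bars) and centred on the median tested gene (open), with the dashed line at that median. S100a8 and S100a9 lie outside the shaded 2-fold band in both comparisons with KO on either scale, while S100a6, S100a10 and S100a11 lie inside it in both.

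The UMIs of both genes were unevenly spread over barcodes in KO. The mean over called barcodes (at least 500 genes, at most 5% mitochondrial UMIs, and a depth minimum) of the squared deviation from the depth-based count, divided by that count, is near 1 where UMIs follow depth. It was 9.04 for S100a8 and 8.55 for S100a9 in KO, 1.08 and 1.06 in WT and 1.10 and 1.16 in KO_PBS. The measure also rises with the mean count, so a scarce gene lies near 1 however uneven it is. Both genes were scarce in WT and KO_PBS, so these values are not compared between libraries. In KO 904 called barcodes had 10 or more S100a8 UMIs, up to 193 in 1 barcode, and 1999 had 10 or more S100a9 UMIs, up to 232. WT and KO_PBS had 0 such barcodes for either gene. The 904 barcodes are 0.851% of those called and held 25.6% of the S100a8 UMIs in them, and the 1999 are 1.88% and held 29.0% of the S100a9 UMIs. Of the 904, 742 also had 10 or more S100a9 UMIs and 0 lacked S100a9, while 138 of the 1999 had no S100a8 UMI.

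Barcodes were then grouped by marker genes of cell types, in which no S100 gene was used. For each list and library the 200 called barcodes richest in the list beyond their depth were summed, with at least 3 of its markers detected, and these sets are ranges of a score and no cell types. In KO the neutrophil-marker-rich barcodes had 7428 S100a8 UMIs, 9755 CPM (9534 to 9979), against 218 CPM in all called barcodes, a 44.8-fold difference. S100a9 was at 9700 CPM (9480 to 9924) there, 22.6-fold above the called barcodes. All 200 barcodes had both genes. Besides them the set was led by Ngp (2696 CPM), Camp (2197 CPM) and Ltf (712 CPM) of the marker list and by Lcn2 (1270 CPM), Wfdc21 (382 CPM) and Chil3 (217 CPM), genes of neutrophil granules or of myeloid cells. Retnlg (70.9 against 1.51 CPM in called barcodes) and Ly6g (51.2 against 0.702 CPM) were also raised there, Csf3r less so (15.8 against 7.55 CPM), and Clec4e (5.25 against 4.11 CPM) and Clec4d (1.31 against 7.00 CPM) were not; these 5 were named after their values were seen. The remaining 6 S100 genes were between 0.749 and 1.03 of their level in called barcodes. No such set could be formed elsewhere, since 1 barcode in WT and 35 in KO_PBS had enough markers, under the minimum of 50.

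The barcodes richest in wound keratins, Krt6a, Krt6b, Krt16 and Krt17, which epithelium makes when injured or inflamed, held more of the calprotectin genes in KO than in WT or KO_PBS. The WT and KO_PBS intervals overlap for both genes. These barcodes also differed in make-up: their leading genes beside the keratins were S100a7a, Asprv1, Trex2 and Cnfn in WT and Slc5a8 and Ceacam1 in KO_PBS. In KO they held 5911 S100a9 UMIs, 5110 CPM (4980 to 5242) and 11.9-fold above the called barcodes, and 1383 S100a8 UMIs, 1196 CPM (1133 to 1260) and 5.49-fold above. In WT they held 7 S100a9 UMIs, 6.99 CPM (2.81 to 14.4), and 0 S100a8 UMIs (0 to 3.68 CPM). In KO_PBS they held 10 S100a9 UMIs, 15.4 CPM (7.41 to 28.4), which is 0.476 of the 32.5 CPM in called barcodes. Of S100a8 they held 4 UMIs there, 6.18 CPM (1.68 to 15.8), which is 0.756 of the called level. The KO set was led by Sprr2d, Sprr2f, Cnfn and Dmkn, genes of the cornifying epithelium, and Krt16 reached 8420 CPM in it. It shared 0 barcodes with the neutrophil-marker-rich set.

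The balance between both genes differed between these sets. In KO S100a8 made up 50.1% (95% exact binomial interval 49.3 to 51.0) of the summed S100a8 and S100a9 UMIs of neutrophil-marker-rich barcodes. It made up 19.0% (18.1 to 19.9) in those rich in wound keratins, and 33.6% (33.4 to 33.8) over all barcodes. The macrophage-marker-rich set, which shares 2 barcodes with the neutrophil set and has 135 of its 353 S100a8 UMIs in 1 barcode, was at 46.9% (43.3 to 50.5), and the corneal-epithelium-marker-rich set at 28.5% (24.5 to 32.7). Over whole libraries the share was 29.4% (27.4 to 31.5) in WT and 20.1% (19.2 to 21.1) in KO_PBS. UMIs of 1 barcode are not independent, so these intervals are too narrow.

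**Figure D3:**
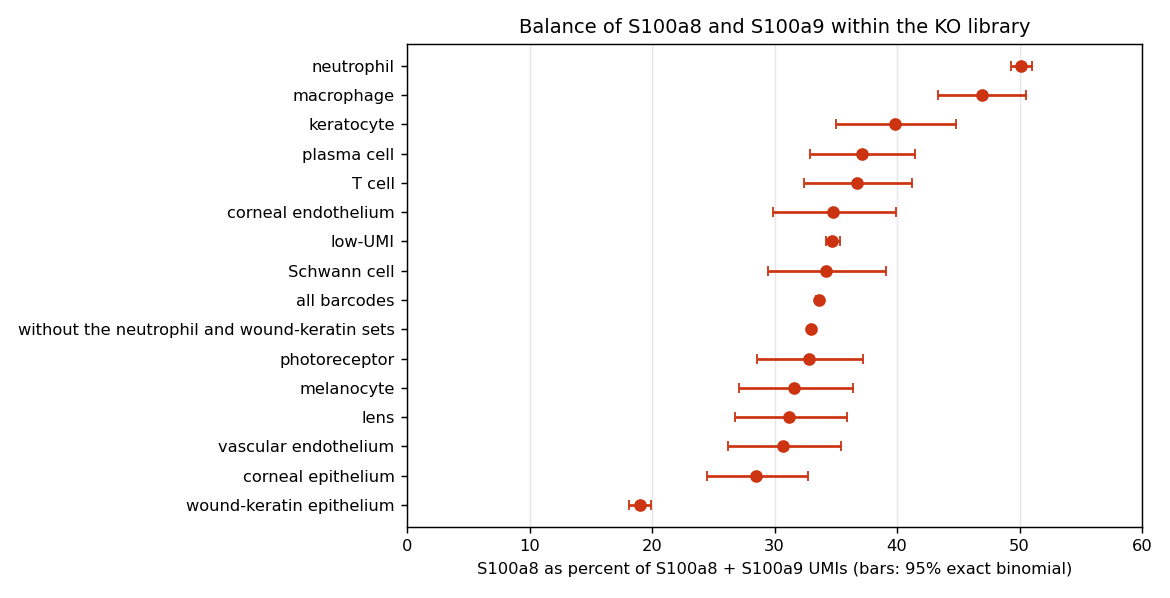
S100a8 as a percent of the S100a8 and S100a9 UMIs in each set of KO barcodes (marker-rich sets, low-UMI barcodes, all barcodes, and all without the neutrophil and wound-keratin sets), with 95% exact binomial bars. Neutrophil-marker-rich barcodes are at 50.1% and wound-keratin-rich ones at 19.0%, on either side of the library as a whole at 33.6%.

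Each set was limited to 200 barcodes, so the part of the calprotectin UMIs it holds is bounded by that choice. Of the 904 barcodes with 10 or more S100a8 UMIs, 190 were in the neutrophil set and 41 in the wound-keratin set, and of the 1999 for S100a9, 192 and 101 were. The neutrophil-marker-rich barcodes held 9.71% of the S100a8 and 4.89% of the S100a9 UMIs in 0.217% of all UMIs. The wound-keratin-rich ones held 1.81% and 3.92% in 0.329% of all UMIs. Without the barcodes of both sets, an alternative added after the data were seen, the log2 ratio of KO to WT was 6.45 for S100a8 and 6.22 for S100a9, and of KO_PBS to KO -4.56 and -3.60. KO barcodes rich in photoreceptor markers still had 219 CPM of S100a8 (186 to 256) and those rich in keratocyte markers 202 CPM (172 to 236), near the 218 CPM of called barcodes. Several other sets were lower, among them 163 CPM in lens-marker-rich (136 to 193), 149 CPM in corneal-endothelium-marker-rich (124 to 177), 145 CPM in vascular-marker-rich (121 to 173) and 110 CPM in corneal-epithelium-marker-rich barcodes (92.0 to 130). S100a9 was at 449 CPM in the photoreceptor set and at 306 CPM in the keratocyte set, against 429 CPM in called barcodes. The 25% of KO barcodes with the fewest UMIs had 192 CPM of S100a8 and 361 CPM of S100a9. Thinned to 1000 UMIs, 14.3% of called KO barcodes had an S100a8 UMI (34.2% unthinned, median depth 2990) and 13.7% of these low-UMI barcodes did (23.3% unthinned, median depth 2001). Of the low-UMI barcodes 25950 of 26757 were themselves called in KO, so their share is no measure of free RNA. Of the 200 photoreceptor-marker-rich barcodes, 71 had an S100a8 UMI, unthinned and at a median depth of 3394. How many of the barcodes with a UMI express the gene was not tested.

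Outside KO the genes were sparse but not evenly mixed. Called WT barcodes with both S100a8 and S100a9 numbered 38, where depth alone gives 8.25, and KO_PBS had 120 against 70.2. In KO the number was 23804 against 20852. WT macrophage-marker-rich barcodes had 9 S100a8 UMIs (9.57 CPM, 4.38 to 18.2) and 11 S100a9 UMIs (11.7 CPM, 5.84 to 20.9), 4.37-fold and 2.26-fold above called barcodes. Those rich in vascular markers had 12 UMIs of each gene, which is 12.0 CPM; both sets share 5 barcodes, so they are not separate observations. In KO the macrophage-marker-rich set was at 470 CPM of S100a8 (422 to 522), but 135 of its 353 UMIs came from 1 barcode, and without it the level was 292 CPM.

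Neutrophil markers and some wound keratins were also higher in KO than in WT at library level, and their part in the ratios was not tested. All 14 neutrophil markers were called higher in KO against WT, beside 20.6% of all genes, and they summed to 16.2, 106 and 90.6 CPM, with no marker at 0 but Trem1 at 2 UMIs in WT. KO_PBS against KO, 5 of 14 were called lower, 1 higher and the other 8 neither, beside 4.70% lower and 39.9% higher of all genes. Ngp was at 0.145, 22.4 and 0.315 CPM and Camp at 0.344, 19.9 and 2.42 CPM, in the order seen for S100a8. Ltf was at 11.2, 23.3 and 39.2 CPM, Il1r2 at 2.88, 10.6 and 21.5 CPM, and Csf3r, the receptor of granulocyte growth factor, at 0.242, 7.54 and 9.63 CPM. These were not lower in KO_PBS, and Il1r2 and Csf3r were chosen after their values were seen. Ltf and Il1r2 made up most of the marker sums in WT and KO_PBS. The wound keratins summed to 2834, 3673 and 2248 CPM, and 2 of 4 were called higher in KO than in WT, Krt16 at 29.7, 704 and 111 CPM and Krt17 (log2 ratio 1.25). Krt6a (0.24) and Krt6b (-0.22) were not called, and in KO_PBS against KO only Krt16 was (-2.67).

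**Figure D4:**
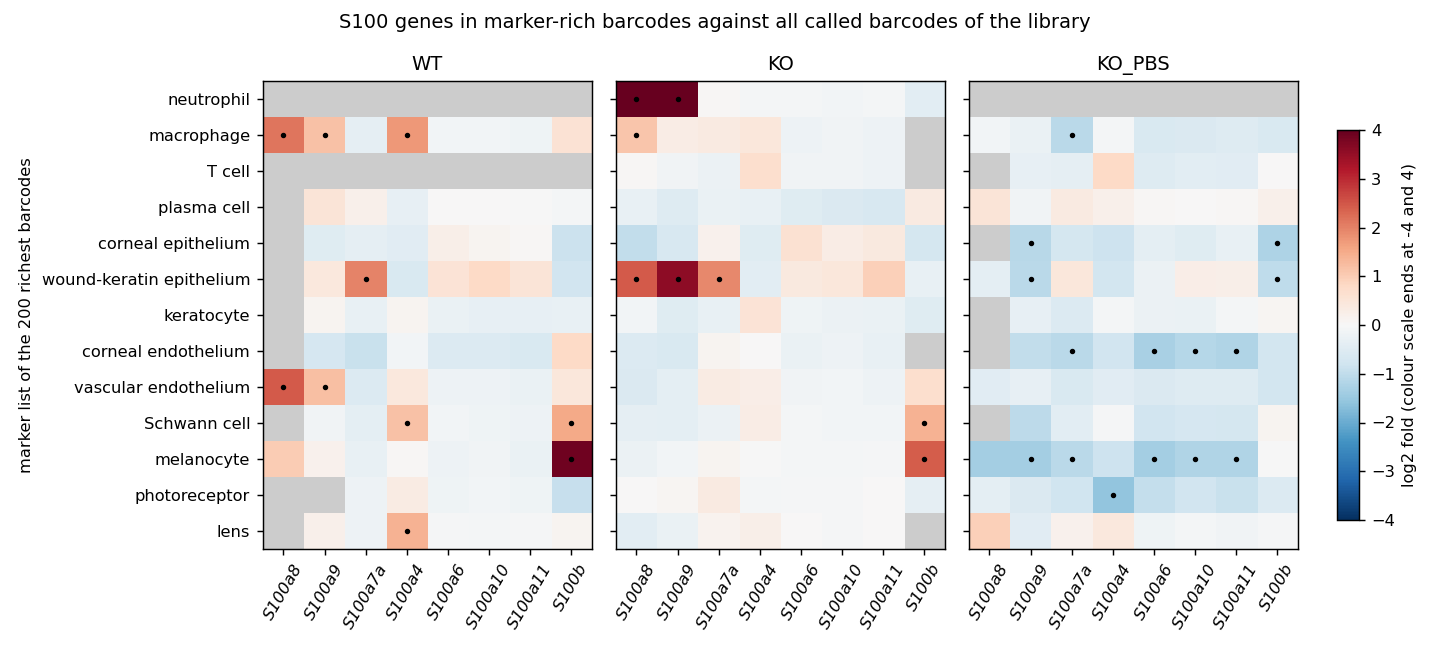
Log2 fold of each S100 gene in marker-rich barcodes (rows) against all called barcodes of the same library, with dots on folds of at least 2 in either direction whose exact 95% intervals do not overlap, and grey where a set could not be formed or held under 3 UMIs. The KO columns of S100a8 and S100a9 stand out in the neutrophil and wound-keratin rows, and S100b stands out in the melanocyte row of WT.

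Across all sets, 18 of 288 pairs of an S100 gene and a marker list were at least 2-fold above the called barcodes, namely 10 of the 88 WT pairs, 8 of the 104 KO pairs and 0 of the 96 KO_PBS pairs. KO_PBS instead had 15 pairs at least 2-fold below, and 0 were below in the others. Pairs were counted for the S100 genes only, so whether other genes give more or fewer is not known. The 3 libraries differ in depth, and how this bears on the number of pairs was not tested.

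S100a7a, next to S100a8 on the chromosome, ran the other way. Its 25618, 12053 and 22279 UMIs are 100 CPM (98.9 to 101), 34.3 CPM (33.7 to 34.9) and 125 CPM (124 to 127). KO was the lowest, and WT and KO_PBS lay 1.25-fold apart. S100a7a was 2.92-fold lower in KO than in WT (2.86 to 2.98, log2 ratio -1.54) and 3.65-fold higher in KO_PBS than in KO (3.57 to 3.73, log2 ratio 1.87). The ratio of KO_PBS to KO lay at the 72.6 percentile of all genes tested and was 1.24 when centred, still called higher. KO_PBS against WT was not called, with a log2 ratio of 0.32 that turned to -0.95 when centred on the median gene.

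Within WT and within KO S100a7a was highest in wound-keratin-rich barcodes. It was at 397 CPM there in WT (359 to 438, 3.96-fold above called barcodes) and at 129 CPM in KO (109 to 151, 3.76-fold). In KO_PBS it was at 170 CPM there (140 to 205, 1.36-fold). This overlaps the plasma-cell-marker-rich set at 159 CPM (119 to 207) and the lens-marker-rich set at 141 CPM (106 to 185). Sdc1 was the highest gene of the plasma cell list in KO_PBS, at 321 CPM with Jchain at 67.1 CPM. In WT Sdc1 was at 519 CPM and Jchain at 0.488 CPM, so sets of this name need not hold plasma cells. The wound-keratin-rich sets differ in make-up between libraries, with Krt16 at 404, 8420 and 983 CPM, so their S100a7a levels are not compared between libraries. The genes with the most similar levels over the 36 marker-rich sets of all libraries were Csta1 and Cysrt1, both genes of epithelial surface cells (Pearson r 0.92 each), and Defb1, a defensin (r 0.88), out of 11252 genes. These sets share libraries and depth, so the coefficients describe them and no more. In the 200 called barcodes richest in S100a7a, Lce3a, Cnfn and Crct1 of the cornified envelope led in WT, Sprr2d, Sprr2f and Cnfn in KO, and Cxcl2, Slc1a1 and Lce3a in KO_PBS; this ranking by S100 content was added after the values were seen.

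S100a4 was higher in KO. Its 11614, 50923 and 14735 UMIs are 45.4 CPM (44.6 to 46.2), 145 CPM (144 to 146) and 82.9 CPM (81.5 to 84.2). KO was highest and KO_PBS lay between. The gene was 3.19-fold higher in KO than in WT (3.13 to 3.26; log2 ratio 1.68). KO_PBS lay 1.75-fold below KO (log2 ratio -0.81), under the 2-fold limit, and was called lower when centred (-1.44). KO_PBS against WT was not called at 0.87, and centring turned it to -0.40. The KO_PBS gene list alone holds Gm42674 (70 UMIs), which shares exons with S100a4 on the same strand, so reads of the shared exons could not be assigned to 1 gene there, and the KO_PBS values of S100a4 are uncertain.

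S100a4 was also followed over the marker-rich sets of each library, and differences between libraries were not tested. In WT it was at 151 CPM in macrophage-marker-rich barcodes (127 to 178, 3.34-fold above called barcodes). It was at 119 CPM in lens-marker-rich ones (94.1 to 148, 2.62-fold) and at 101 CPM in Schwann-marker-rich ones (81.1 to 125, 2.24-fold). The macrophage and Schwann sets share 3 barcodes, so they are not fully separate observations. Without its top barcode the Schwann set was at 90.5 CPM, against 45.2 CPM in called barcodes. In KO the set levels of S100a4 ran closer to the called level of 145 CPM, and 0 sets reached 2-fold. They were 232 CPM in T-cell-marker-rich barcodes (199 to 268), 212 CPM in keratocyte-marker-rich (181 to 247) and 197 CPM in macrophage-marker-rich ones (167 to 232). In KO_PBS the T-cell-marker-rich set was highest too, at 143 CPM (111 to 182, 1.74-fold), a set that could not be formed in WT. KO_PBS photoreceptor-marker-rich barcodes had 27.8 CPM (16.4 to 43.9), 0.337 of the called level. Barcodes richest in S100a4 were led by Retnla, Cryba1 and Lyz2 in WT and by Timp1 (7.64-fold), Saa3 (6.99-fold), Mmp12 and Mmp3 in KO, genes of matrix turnover and the acute phase. Over the 36 sets its most similar genes were Cxcl14 (r 0.83), Mmp3 (r 0.82) and Mmp12 (r 0.81). Mmp3 was at 66.2, 1092 and 105 CPM. The macrophage markers summed to 120, 1643 and 1601 CPM, led in KO by Lyz2 at 540 and C1qa at 324 CPM. Of these 12, 11 were called higher in KO against WT, beside 20.6% of all genes. In KO_PBS against KO 0 of 12 were called lower, beside 4.70%. Keratocyte markers were at 1275, 4078 and 2541 CPM in called barcodes, and 9 of 10 were called higher in KO against WT and 0 lower. In KO_PBS against KO 4 of 10 were called lower and 1 higher, beside 4.70% and 39.9% of all genes. All 11 T cell markers were called higher in KO against WT, and in KO_PBS against KO 1 was called higher and 0 lower. The part of any of these markers was not tested.

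S100a6, S100a10 and S100a11, the members of abundant epithelial expression, differed less. S100a6 was at 20963 CPM in WT (20946 to 20981), 13269 in KO (13257 to 13281) and 13153 in KO_PBS (13136 to 13170), and so made up 2.10%, 1.33% and 1.32% of all UMIs. S100a10 was at 1735, 1322 and 1997 CPM and S100a11 at 2653, 2254 and 2692 CPM in the same order. All 3 genes were lower in KO than in WT, by 1.58-fold, 1.31-fold and 1.18-fold, and none was called. Their ratios lay at the 15.2, 23.4 and 29.2 percentiles of all genes.

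For KO_PBS against KO the log2 ratios were -0.01 (S100a6), 0.59 (S100a10) and 0.26 (S100a11), and centring turned them to -0.64, -0.04 and -0.37, with none called. For KO_PBS against WT they were -0.67, 0.20 and 0.02, and centring gave -1.94, -1.07 and -1.25, where each is called lower. Corneal epithelium markers, whose part was not tested, summed to 56554, 38896 and 24384 CPM, and 3 of 10 were called lower in KO_PBS than in WT while 0 were called higher, beside 4.06% and 57.0% of all genes. In KO_PBS against KO 5 of 10 were called lower and 0 higher, beside 4.70% and 39.9%, and in KO against WT 2 were called higher and 0 lower, beside 20.6% and 8.63%.

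S100a6 was in 106220 of 106224 called KO barcodes thinned to 1000 UMIs and still varied beyond depth, with a spread of 2.97, 2.66 and 2.42 times the depth-based one in WT, KO and KO_PBS. S100a10 and S100a11 stood between 1.11 and 1.29. This measure rises with the mean count, which is highest for S100a6, so it does not rank the 3 genes by unevenness. Sets of other tissues held much S100a6 too. In WT it was at 24851 CPM in corneal-epithelium-marker-rich barcodes, 20209 in lens-marker-rich and 18803 in photoreceptor-marker-rich ones, against 21074 in called barcodes. The WT corneal-endothelium-marker-rich set was lowest at 14377 CPM. How many of the barcodes with an S100a6 UMI express the gene was not tested. In KO, S100a11 reached 4346 CPM in wound-keratin-rich barcodes (4227 to 4468; 1.93-fold above called barcodes), and the barcodes richest in it were led by Sprr2d, Sprr2f, Dmkn and S100a9. In KO_PBS all 3 genes were 2-fold or more lower in corneal-endothelium-marker-rich barcodes (0.406 of the called level for S100a6, 0.450 for S100a10 and 0.435 for S100a11) and in melanocyte-marker-rich ones (0.390, 0.431 and 0.432). Both sets were deep, with medians of 3916 and 3776 UMIs against 1464 in called barcodes. The low-UMI KO_PBS barcodes had 16753 CPM of S100a6 against 13086 CPM in called ones, and the part of depth was not tested. Over the sets S100a10 was most like Lgals3 (r 0.96), S100a11 most like Anxa2 (r 0.94), the annexin known to bind S100A10, and S100a6 most like Hspb1, Rab25 and Gsta4 (r 0.97 each).

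S100b was lowest in KO, where S100a8 and S100a9 were highest, and had the order of the summed pigment cell markers. In KO_PBS against WT all 3 genes were called higher, beside 57.0% of all genes, and with centred ratios only S100a9 still was. The 5435, 1847 and 17815 UMIs of S100b are 21.2 CPM (20.7 to 21.8), 5.26 CPM (5.02 to 5.50) and 100 CPM (98.7 to 102). KO was lowest and KO_PBS highest. S100b was 4.04-fold lower in KO than in WT (3.83 to 4.26; log2 ratio -2.01), at the 1.95 percentile of all genes. It was 19.1-fold higher in KO_PBS than in KO (18.2 to 20.0), a log2 ratio of 4.25 that centring turned to 3.62. Against WT it was 4.72-fold higher in KO_PBS (4.58 to 4.86), at a centred log2 ratio of 0.97, just under the limit. Its gene body overlaps Dip2a on the other strand, with no exon in common.

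In WT the melanocyte-marker-rich barcodes had 210 S100b UMIs, 306 CPM (266 to 351) and 14.9-fold above called barcodes, and the Schwann-marker-rich ones 51 UMIs, 59.3 CPM (44.2 to 78.0) and 2.89-fold. In KO the corresponding levels were 28.4 CPM (20 UMIs, 17.3 to 43.8; 5.40-fold) and 13.9 CPM (11 UMIs; 2.65-fold). In KO_PBS they were 97.6 and 109 CPM, 0.979 and 1.09 of the called level, so neither set stood out there. Beside the markers, the melanocyte-marker-rich set was led in WT by Prpmp5 (295 CPM), Ptgds (6819 CPM), Spp1 (350 CPM) and Ttr (723 CPM). In KO it was led by Ttr (325 CPM) and Ptgds (1182 CPM), and in KO_PBS by Npsr1 and Kcnip4. Which pigmented tissue these barcodes came from was not tested. The melanocyte markers summed to 503, 175 and 4317 CPM. KO against WT, 6 of the 8 were called lower and 1 higher, beside 8.63% and 20.6% of all genes, and 8 were called higher in KO_PBS than in KO, beside 39.9%, led by Dct at 2033 and Pmel at 1192 CPM. Schwann markers summed to 75.4, 90.1 and 133 CPM. Lens and photoreceptor sums, given above, had the same order as S100b, and how much of any eye tissue beside the cornea was in each sample was not tested. Ldhb (r 0.93), Mlana, a melanosome gene (r 0.92), and Ptgds (r 0.92) were most like S100b over the sets.

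**Figure D5:**
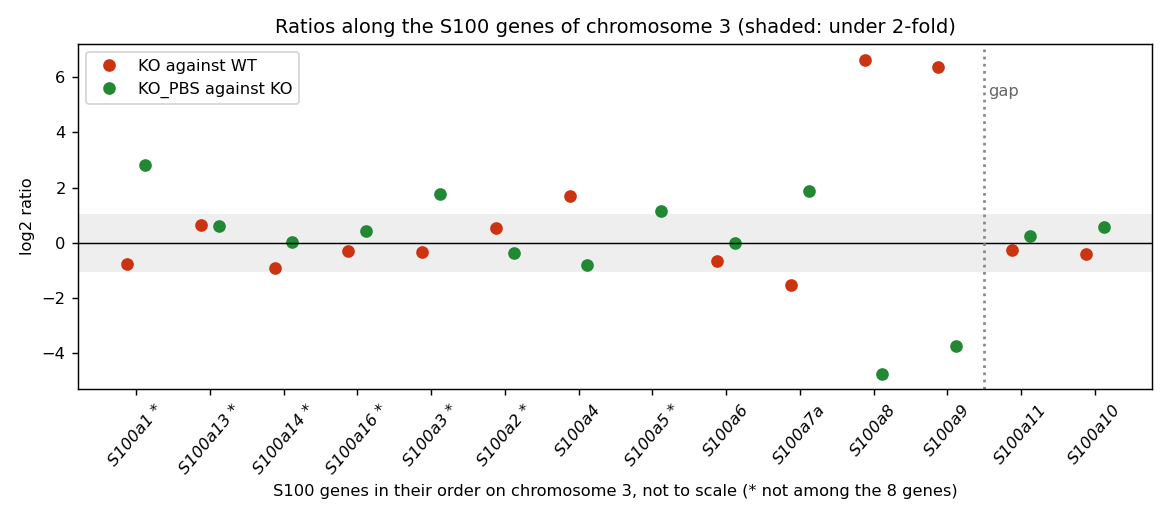
Log2 ratio of each S100 gene of chromosome 3 in gene order (not to scale), KO against WT and KO_PBS against KO, with the gap before S100a11 marked and genes outside the 8 starred. S100a8 and S100a9 (6.63 and 6.35 in KO against WT) stand apart from S100a7a beside them (-1.54), and S100a5 has no value in KO against WT because it had too few UMIs.

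The other S100 genes, of which S100g and S100z are not among those plotted on chromosome 3, had smaller ratios than S100a8 and S100a9 in KO against WT. Of 10 other S100 genes listed, 9 were found and 7 had enough UMIs in KO against WT, and 0 were called higher and 0 lower, beside 20.6% and 8.63% of all genes, with a median log2 ratio of -0.34. In KO_PBS 3 of 8 were called higher than in KO and 3 of 7 higher than in WT, and 0 lower in either. These shares are near or under the 39.9% and 57.0% of all genes. S100a1 and S100a3 were called against both, and S100a13 against WT only (log2 ratio 1.26, and 0.62 against KO). The other call against KO was S100a5, which had only 34 UMIs in KO and 38 in KO_PBS. S100a1, known from muscle and brain, was at 93.6, 55.5 and 393 CPM, S100a3 at 25.8, 20.5 and 70.3 CPM and S100a13 at 47.0, 73.4 and 112 CPM. S100a1 and S100a3 thus had the order seen for S100b, as did S100a16 and, among the 8 genes, S100a7a, S100a10 and S100a11.

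Among the annexins, partners of S100A10 and S100A11, 1 of 11 was called in KO against WT, Anxa6 (log2 ratio 1.51), and the median was -0.28. Higher calls were below the share over all genes in each comparison, which was 20.6% in KO against WT, 39.9% in KO_PBS against KO and 57.0% in KO_PBS against WT. Anxa6 was at 59.9 CPM in KO and 103 CPM in KO_PBS, and Anxa1, which limits inflammation, at 1119, 684 and 420 CPM, called lower in KO_PBS against WT (log2 ratio -1.41) together with 2 annexins called higher, where 4.06% of all genes were called lower. Between KO_PBS and KO 1 was called higher and 0 lower. Anxa2 was at 1621, 1336 and 1309 CPM and was called in no comparison.

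Receptors and adaptors through which calprotectin signals had a median log2 ratio of 0.86 in KO against WT, with 5 of 13 called higher and 0 lower, beside 20.6% and 8.63% of all genes and their median of 0.24. Tlr4 was at 8.76, 24.1 and 19.3 CPM (log2 ratio of KO to WT 1.46). Cd14, which helps Tlr4 take up its ligands, was at 4.19, 20.7 and 6.91 CPM (2.30), the only receptor or adaptor called lower in KO_PBS than in KO (-1.58), beside 4.70% of all genes, where 2 of 13 were called higher beside 39.9%. Nfkb1, an NF-kB subunit, was at 32.2, 95.3 and 84.2 CPM (1.57). Ager stayed near 1 CPM in WT and KO (1.07 and 1.32) and was at 3.46 CPM in KO_PBS. KO_PBS against WT gave 7 of 13 called higher and 0 lower, among them Irak1 (1.60) and Myd88 (1.39), which is near the 57.0% of all genes. The median of the list was 1.14 there, and that of all genes 1.27.

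Of 12 genes that inflammatory signalling induces, 11 were called higher in KO than in WT, beside 20.6% of all genes, and 0 lower, with a median log2 ratio of 3.69 and Nfkbia (0.89) under the 2-fold limit. Saa3, an acute-phase protein, was at 0.653, 1228 and 58.4 CPM, a log2 ratio of 10.88 (10.66 to 11.11) for KO to WT and -4.40 for KO_PBS to KO. Il1b, a pyrogenic cytokine, was at 0.735, 27.8 and 12.8 CPM, and Ccl2, which draws monocytes, at 0.711, 17.0 and 27.9 CPM. In KO_PBS 5 of 12 were called lower than in KO, among them Cxcl5 (-1.92), a neutrophil chemokine, and 1 was called higher, Tnf (2.27), beside 4.70% and 39.9% of all genes. Against WT 11 of 12 were called higher in KO_PBS and 0 lower, beside 57.0% higher of all genes, with Icam1 at a log2 ratio of 4.37. Saa3 was highest in KO, as S100a8 was, while Ccl2 and Tnf were highest in KO_PBS.

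Among 10 other alarmins 4 were called higher in KO and 0 lower, against WT, beside 20.6% and 8.63% of all genes; Camp and Ltf are in the neutrophil list too. Camp, the neutrophil cathelicidin, had a log2 ratio of 5.85, Hspa1b 1.61 and Il1a, an epithelial alarmin, 1.44. In KO_PBS 2 were called lower than in KO, Camp (-3.03) and Hspa1a (-1.26), and 1 higher, Il33 (1.15), beside 4.70% and 39.9% of all genes. Against WT 5 of 10 were called higher and 1 lower, beside 57.0% and 4.06% of all genes. Il33 was at 8.58 CPM in WT and 35.8 CPM in KO_PBS.

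The epidermal differentiation complex, whose cornified envelope genes lie on chromosome 3 between the S100 groups, had a median log2 ratio of 2.64 in KO against WT. Of its 11 genes tested there, 6 were called higher, beside 20.6% of all genes, and 1 lower, beside 8.63%, which was Pglyrp3, named after its values were seen. Sprr1b had 3 UMIs in WT and 14773 in KO (42.0 CPM), a log2 ratio of 11.81 with a counting interval of 10.26 to 14.09. Sprr2d (9 and 8662 UMIs; log2 ratio 9.45) and Sprr2h (12 and 4501 UMIs; 8.09) followed. In KO_PBS 7 of 11 were called lower than in KO and 2 higher, beside 4.70% and 39.9% of all genes, and Flg, which makes filaggrin, was at 15.8, 10.8 and 0.472 CPM, the 1 gene called lower in KO_PBS than in WT. Against WT 5 of 10 were called higher in KO_PBS, beside 57.0% of all genes. The Sprr genes belong to families of near-identical copies, between which reads may be split.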

How the data were processed

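Nuclei were captured with 10x chemistry that reads the 3' end of transcripts, per the labels' protocols. The deposited matrices hold raw UMI counts, which the authors made in Cell Ranger, version 7.0.1, per the file headers, against mm10 (per the submitters' processing notes). Not given in the sources used here are the annotation, whether intronic reads counted, and how barcodes were filtered. The WT and KO lists hold 32285 genes and the KO_PBS list 31053; the 30406 Ensembl IDs in all lists held 99.6%, 99.6% and 99.3% of the UMIs, and 597 of them carry another symbol in KO_PBS. How the differing lists affect other reads was not tested.

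UMIs were summed over all barcodes of a library and scaled to CPM, with the rule of size on counts, in which a count below 3 was set to 3. No test was possible with 1 library per group, and intervals cover counting error only. Marker-rich sets took the 200 called barcodes with the largest excess of list UMIs over depth. A called barcode had at least 500 genes, at most 5% mitochondrial UMIs and 10% or more of a reference depth, the 99th percentile over the 10000 deepest barcodes. Doublets were not removed and no caller was run. Named genes are the 8 members, the 3 most alike by Pearson r of log2(CPM + 1), the 3 pathway list genes with the largest called ratio at 10 CPM or more, and the 2 highest of a marker list; others named are leading genes of a set, list members already counted, or marked as chosen later. Members and lists were chosen with earlier results of these data known. S100a7l2, Anxa13, Loricrin and Lim2 of the lists were not matched by symbol, but the loricrin gene was matched under its other symbol, Lor. Alternatives changed the barcodes summed, scaling, depth, UMI minimum, fold limit and set definition. Only the rule of size was tested on simulated data, which held counting error alone. All steps were run with pandas 2.3.3, scipy 1.17.1, numpy 2.4.6 and matplotlib 3.10.9 under python 3.11.15. Promoter sequences are RefSeq's, of GRCm38.p6.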

Additional observations from a re-analysis of the deposited data

How the results depend on the processing

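Of 78 recomputed numbers of S100 genes called, 74 stayed within 1.5 times the value given. The exceptions were KO_PBS against WT centred on the median gene, with 1 higher in place of 3 and 3 lower in place of 0, the same comparison at a 1.5-fold limit, with 1 lower, and KO against WT at a 3-fold limit, with 1 lower in place of 2. Other values moved more often. Of 216 recomputed log2 ratios of the S100 genes, 87 moved beyond their counting interval, and the folds themselves changed by over 1.5 times only when centred, given beside them. In the low-UMI barcodes alone S100a6 in KO_PBS against KO turned from -0.01 to 0.39, not called in either, and S100a4 in KO_PBS against WT was 1.12, over the 2-fold limit. Of the recomputed list counts 56 moved and 412 did not, and 23 of 24 shares of barcodes with a UMI moved when thinned to 500 UMIs. Such a share falls with depth by itself, so this last count is no test of it. The number of pairs of an S100 gene and a marker list above the called barcodes ranged from 16 to 19 around 18. No direction of a called gene reversed under any alternative run. No paired analysis was possible because each group has 1 library, and for the same reason no library could be left out. Marker-rich sets of WT and KO_PBS held at most 15 UMIs of S100a8 or S100a9, which limits the precision of their levels there.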
